A study of Mus musculus with 2 samples.

Results

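The 44 genes described here drive or mark cell division and DNA replication. They were taken by name from a fixed list (every non-control probe whose array name or current RefSeq symbol is a listed gene, with Cdc2a read as Cdk1) out of 22349 gene symbols on the array. They fall into a replication group of 11 genes, a mitosis group of 24 and a G1 group of 9, where G1 is the phase before DNA synthesis. Of the 44, 36 were measured on both arrays, against 15869 genes in all. A gene counted as measured when 1 of its probes was unsaturated and well above background in both pools.

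RNA came from the gastrocnemius, the large superficial calf muscle, of male C57BL/6 mice, each 9 weeks old at sampling. The denervated group had lost its nerve supply for 14 days, since the age of 7 weeks. The other group was of the same strain, sex and age and is called a sham control in one label and only a control in another, so whether these mice were operated on is unclear, and the surgery is not given in the sources used here. RNA of 6 mice was pooled in each group and hybridised to 1 array, so no spread between mice was measured and no difference has a replicate check or a p-value. Each value describes these 2 pools. Both arrays came from 1 slide and 1 scan, so the slide position of an array and its group cannot be told apart. The labelled tissue was borne out by its markers: all 10 muscle fibre genes, such as Ckm and Tnnt3, were measured, with a summed signal of 464184.8 in control muscle against 350445.6 in denervated muscle.

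A dividing cell copies its DNA in S phase and separates the copies in mitosis. Cyclin D with Cdk4 or Cdk6, and then cyclin E with Cdk2, inactivate the retinoblastoma protein and release E2F factors, which switch on genes for nucleotide synthesis and for the MCM helicase that opens DNA. Genes of mitosis are switched on later, largely through paired NF-Y boxes and the cell-cycle homology region bound by the MuvB complexes, and the anaphase-promoting complex then degrades many of their proteins. In adult muscle the fibre nuclei no longer divide, and the cells that can are those between and beneath the fibres, such as satellite cells, fibroblasts, endothelial cells and leukocytes. In bulk RNA, fewer cells of a type and less RNA per cell cannot be told apart.

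Because these control letters differ between the groups, promoter windows are shown for 7 genes on which the results turn: Ccnb2, Mki67 and Plk1, mitosis genes higher in the denervated pool; Aurka, a mitosis gene lower in it; and Rrm2, Mcm6 and Tk1, the replication genes past 2-fold. Each window runs from 250 bases before to 50 bases after the start site (RefSeq, GRCm38.p6), written 5′ to 3′ in the direction of the gene. Capitals mark matches, on either strand, to an E2F site (TTTCCCGC, TTTCGCGC, TTTGCCGC or TTTGGCGC), a cell-cycle homology region (TTTGAA or TTCGAA) or an NF-Y box (CCAAT). Where matches overlap, the capitals run together.
Ccnb2, chr9:70421505-70421804, minus strand: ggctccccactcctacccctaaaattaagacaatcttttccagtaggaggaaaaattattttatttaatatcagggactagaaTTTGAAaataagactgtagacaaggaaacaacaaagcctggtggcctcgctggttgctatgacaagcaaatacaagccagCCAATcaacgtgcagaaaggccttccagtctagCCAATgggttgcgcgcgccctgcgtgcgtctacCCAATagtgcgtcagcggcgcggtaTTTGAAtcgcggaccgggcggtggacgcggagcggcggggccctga
Mki67, chr7:135716330-135716629, minus strand: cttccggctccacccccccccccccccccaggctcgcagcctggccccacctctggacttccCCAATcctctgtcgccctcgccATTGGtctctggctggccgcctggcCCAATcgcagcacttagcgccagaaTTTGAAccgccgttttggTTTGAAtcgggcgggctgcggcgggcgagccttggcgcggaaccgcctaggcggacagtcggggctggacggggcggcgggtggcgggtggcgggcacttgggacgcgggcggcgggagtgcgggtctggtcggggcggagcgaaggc
Plk1, chr7:122159185-122159484, plus strand: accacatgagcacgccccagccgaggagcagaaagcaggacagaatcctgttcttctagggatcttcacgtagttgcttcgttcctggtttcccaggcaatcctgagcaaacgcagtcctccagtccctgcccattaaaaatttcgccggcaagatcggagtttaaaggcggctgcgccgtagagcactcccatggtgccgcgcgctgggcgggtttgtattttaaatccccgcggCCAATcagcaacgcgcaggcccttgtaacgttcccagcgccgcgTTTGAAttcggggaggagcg
Aurka, chr2:172370521-172370820, minus strand: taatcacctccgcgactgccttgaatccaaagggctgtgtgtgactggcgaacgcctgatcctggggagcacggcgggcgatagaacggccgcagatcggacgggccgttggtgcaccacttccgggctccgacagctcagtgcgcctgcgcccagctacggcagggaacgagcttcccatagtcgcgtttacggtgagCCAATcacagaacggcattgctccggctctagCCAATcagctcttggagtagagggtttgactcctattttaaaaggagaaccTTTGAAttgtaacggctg
Rrm2, chr12:24708004-24708303, plus strand: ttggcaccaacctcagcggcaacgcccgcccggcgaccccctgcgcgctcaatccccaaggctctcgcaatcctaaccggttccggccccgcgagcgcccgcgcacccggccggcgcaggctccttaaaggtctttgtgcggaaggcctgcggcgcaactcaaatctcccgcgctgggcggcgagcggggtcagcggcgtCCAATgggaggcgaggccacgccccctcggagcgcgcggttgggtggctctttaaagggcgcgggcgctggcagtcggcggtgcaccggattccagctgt
Mcm6, chr1:128359656-128359955, minus strand: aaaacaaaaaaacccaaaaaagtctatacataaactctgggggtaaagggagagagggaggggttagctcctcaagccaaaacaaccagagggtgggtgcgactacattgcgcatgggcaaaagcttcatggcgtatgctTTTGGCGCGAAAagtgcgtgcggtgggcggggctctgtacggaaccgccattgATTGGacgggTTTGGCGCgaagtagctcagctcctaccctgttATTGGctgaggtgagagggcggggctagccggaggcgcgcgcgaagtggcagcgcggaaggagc
Tk1, chr11:117825965-117826264, minus strand: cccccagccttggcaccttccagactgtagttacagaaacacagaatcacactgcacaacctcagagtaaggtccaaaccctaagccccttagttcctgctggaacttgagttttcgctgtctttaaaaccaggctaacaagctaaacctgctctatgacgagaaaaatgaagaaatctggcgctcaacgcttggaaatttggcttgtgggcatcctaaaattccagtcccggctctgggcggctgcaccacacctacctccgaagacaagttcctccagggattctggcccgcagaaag

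With the start site as base 1, the homology letters begin at base 31 in Plk1, at base 33 in Aurka, at bases -167 and 5 in Ccnb2 and at bases -116 and -98 in Mki67. Aurka therefore carries the same letters, at nearly the same place, as Plk1, although the signals of these genes differed in opposite directions. Ccnb2 holds 3 NF-Y boxes and Mcm6 holds 3 E2F matches, 2 of them overlapping. The Rrm2 window has a single NF-Y box, and no letters searched for occur in the Tk1 window.

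A window was found for 35 of the 44 genes, and a gene with several windows counted as matched if any matched. The homology letters occur in 15 of 19 mitosis genes (78.9%), 2 of 10 replication genes (20%) and 0 of 6 G1 genes, against 21.7% of 27025 genes with a window. The E2F letters occur in 4 of 10 replication genes (Mcm3, Mcm5, Mcm6 and Mcm7; 40%), in 1 of 19 mitosis genes (Cdk1) and in 1 of 6 G1 genes (Cdk2), against 2.60% of all genes. The NF-Y letters occur in 8 replication, 16 mitosis and 2 G1 genes, and in 41.1% of all genes. Within the mitosis group the homology region occurs in 8 of the 10 higher genes with a window, in 2 of the 3 measured ones under 2-fold and in the single lower one, Aurka. A match is a string of letters and not evidence of binding, and a missing match says only that these letters are not in this window.

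**Figure D1:**
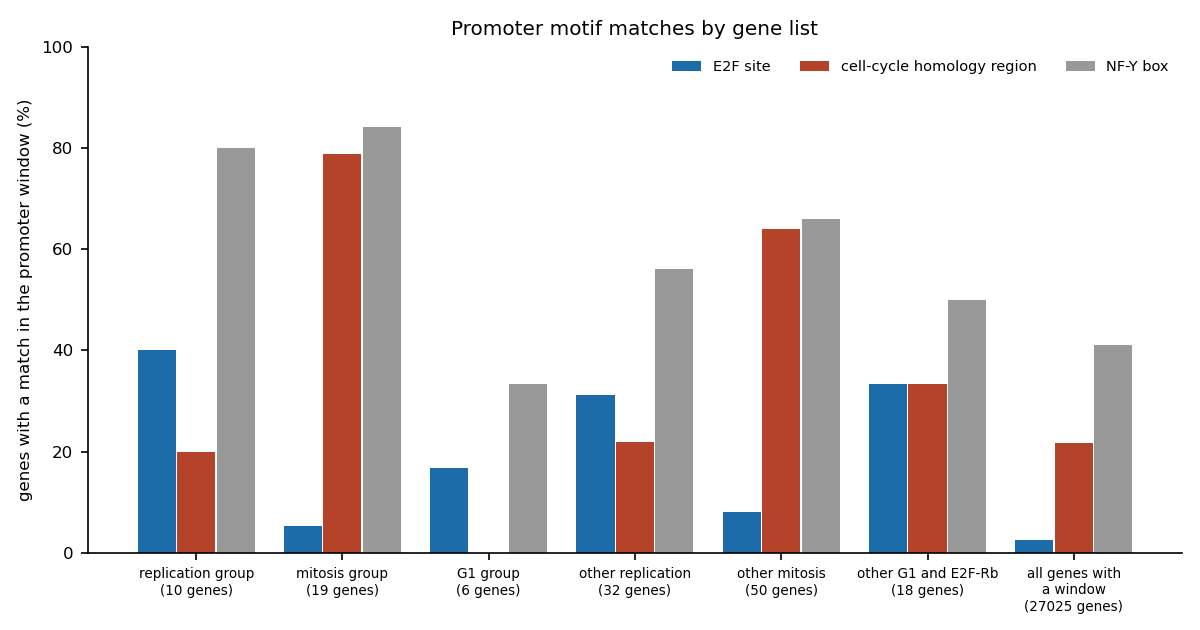
Share of genes with a match to each motif (y axis, percent of genes with a promoter window, from 0) for the 3 groups, 3 companion lists and all genes (x axis, number of genes below each name). The bar for the cell-cycle homology region reaches 78.9% in the mitosis group and 20% in the replication group, and the E2F bar 5.26% and 40%.

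Signals are given on a scale on which the 75th percentile of each array is 100, and a log2 difference is denervated minus control, so 1 is a 2-fold higher and -1 a 2-fold lower signal. The value after ± is the technical error of the scanner software for the 2 spots. Probe signals depend on the probe, so they are compared between pools and not between genes. Of the 36 measured genes, 13 (36.1%) had a denervated signal at least 2-fold above the control signal and 4 (11.1%) at least 2-fold below it. Over all measured genes the shares were 6.88% and 8.59%. The median difference was 0.41 for the 36 genes and -0.11 for all measured genes. The higher genes lay mostly in the mitosis group, with 11 of its 17 measured genes, against 2 of 11 in the replication group and 0 of 8 in the G1 group. The medians of these groups were 1.26, 0.35 and -0.13. The differences between the groups describe these lists and were not tested.

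**Figure D2:**
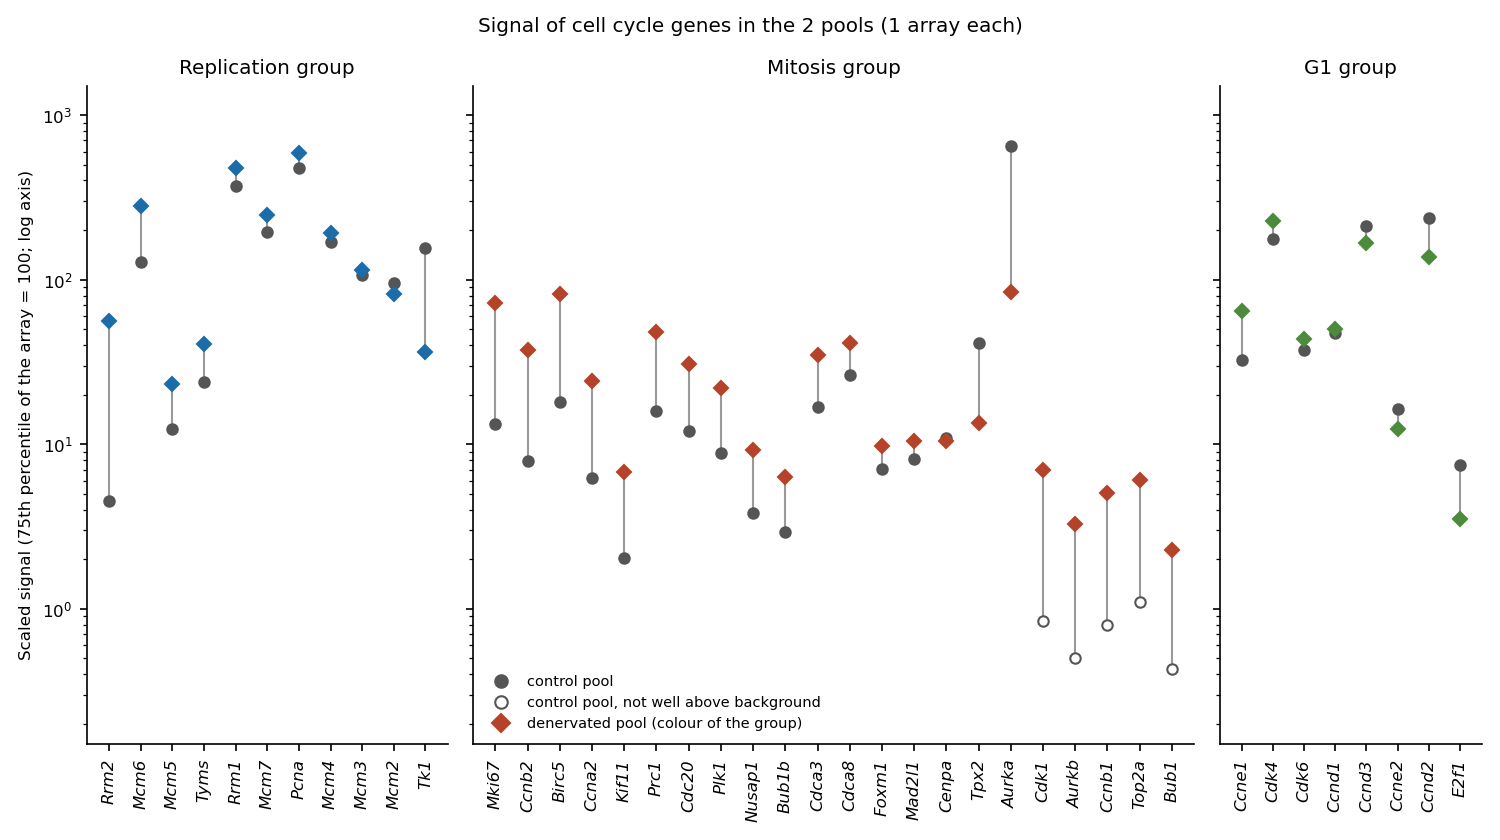
Scaled signal of each gene (y axis, log scale, 75th percentile of the array set to 100) in the control pool (circles) and the denervated pool (diamonds), 1 array each, by group. The denervated diamond lies above the control circle for most mitosis genes, far below it for Aurka (84.4 against 648), and close to it for most G1 genes. Open circles are control signals not well above background.

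Rrm2 had the highest difference of the 36 measured genes. It encodes the small, cell-cycle-dependent subunit of ribonucleotide reductase, the enzyme that makes deoxynucleotides, and its signal was 4.49 in control muscle against 55.7 in denervated muscle. That is a difference of 3.63 ± 0.25, or 12.4-fold (transcript NM_009104, probe on chromosome 12 at 25302833 to 25302889, mm8). With normexp background correction, which adds an offset to every spot, the difference was 2.15, and the control signal was too dim for a value under the stricter filter on signal. The large subunit gene Rrm1 had 373 and 478, a difference of 0.36 ± 0.20. The subunits of 1 enzyme thus differed to very unequal extents. Their near relative Rrm2b, the p53-responsive small subunit, stood at -0.39.

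Tk1 went the other way. Its product, the cytosolic thymidine kinase, salvages thymidine for DNA synthesis, and its signal was 155 in control muscle against 36.6 in denervated muscle. The difference was -2.08 ± 0.21, a 4.23-fold lower signal (NM_009387, chromosome 11 at 117631881 to 117631940, mm8). Tyms, thymidylate synthase, makes the same nucleotide from a different precursor and had 23.9 and 40.8, a difference of 0.77 ± 0.21. Its 3 measured probes ran from -0.01 to 0.82, so the salvage and the synthesis gene stood on opposite sides of 0 by 2 of 3 Tyms probes.

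The MCM genes encode the 6 subunits of the replicative helicase, which act as 1 ring, and they did not share 1 difference. Mcm6 had 128 in control muscle against 279 in denervated muscle, a difference of 1.12 ± 0.20, and Mcm5 had 12.4 and 23.3, a difference of 0.91 ± 0.21. Mcm7 stood at 0.35, Mcm4 at 0.18, Mcm3 at 0.11 with its other probe at 0.15, and Mcm2 at -0.23. Mcm6 was thus the only subunit past 2-fold, although Mcm5 passed it under 4 of the 14 alternative settings, and those from Mcm2 to Mcm4 lay within about their technical error of 0. Pcna, the sliding clamp of the DNA polymerases, had 475 and 585, a difference of 0.30 ± 0.20, and 9 usable spots of its probe gave a mean of 0.29 ± 0.06 (SD over spots). In all, 9 of the 11 replication genes lay above 0, most of them by less than 1.

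Of the 17 measured mitosis genes, 14 lay above 0 in denervated muscle and 3 below, namely Aurka, Tpx2 and Cenpa. Mki67, which encodes the protein that coats mitotic chromosomes and is the standard marker of dividing cells, had the highest measured difference of the group. Its signal was 13.2 in control muscle against 72.5 in denervated muscle, a difference of 2.46 ± 0.21 or 5.50-fold (chromosome 7 at 135528251 to 135528310, mm8). Its other probe gave 2.59 ± 0.35 from signals of 2.32 and 13.9. Birc5, or survivin, a subunit of the chromosomal passenger complex, had 18 and 81.2, a difference of 2.18 ± 0.21. Cdca8, borealin, from the same complex, had 26.2 and 41.3, a difference of 0.66 ± 0.21. A further RefSeq probe of Cdca8 was well above background only in denervated muscle. Its signals of 2.196 and 6.193 gave a difference of 1.495 ± 0.39, or 2.82-fold, which is an estimate from a dim control spot and not a lower limit. Aurkb, the kinase of that complex, was well above background in the denervated pool only.

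The mitotic cyclins moved in the same direction. Ccnb2, cyclin B2, had 7.9 in control muscle against 37.2 in denervated muscle, a difference of 2.23 ± 0.21 (NM_007630, chromosome 9 at 70207028 to 70207087, mm8). Ccna2, cyclin A2, which acts in S phase and early mitosis, had 6.23 and 24.3, a difference of 1.96 ± 0.23. For 5 genes of the group the control signal was not well above background, so only a lower bound on the fold can be given. It sets the denervated signal against whichever is higher, the probe's own control signal or the lowest detected signal of the control array. Cdk1, the partner kinase of the A and B cyclins, was at least 3.80-fold higher, Top2a, the topoisomerase that untangles sister DNA, at least 3.29-fold, and Ccnb1, cyclin B1, at least 2.75-fold. Aurkb was at least 1.77-fold higher and the checkpoint kinase gene Bub1 at least 1.24-fold. Of all 1447 genes above background on 1 array only, whichever array it was, 12.0% had a bound of at least 2-fold in this direction. Genes detected only in control muscle are among the 1447 and cannot have such a bound, so the 12.0% is not a like share for these 5 genes. None of the 44 genes was detected only in control muscle. How the 1447 genes split between the 2 arrays is not given, so neither this nor such splits in the lists below can be set beside all genes. Cdc25c and Ttk were not well above background on either array.

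Kif11, the motor that separates the spindle poles, had 2.02 in control muscle against 6.75 in denervated muscle, a difference of 1.74 ± 0.35. Prc1, which bundles the microtubules of the central spindle, had 16 and 48.2, a difference of 1.59 ± 0.21. Nusap1, a spindle microtubule binder, had 3.85 and 9.20, a difference of 1.26 ± 0.26, but a further probe was detected above background only in control muscle, with 3.37 and 2.43. Plk1, the polo-like kinase of mitotic entry, had 8.8 and 22.1, a difference of 1.33 ± 0.22. The probes of Kif11 and Nusap1 are dim, and their technical errors are above the 0.20 of bright probes. Cdca3, a trigger of mitotic entry, lay just past 2-fold at 1.03 ± 0.21, and its other probe gave 0.56.

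Cdc20, the activator of the anaphase-promoting complex that the spindle checkpoint restrains, had 12.1 in control muscle against 30.8 in denervated muscle, a difference of 1.35 ± 0.21. Bub1b, the checkpoint protein BubR1, had 2.94 and 6.34, a difference of 1.11 ± 0.31, and Mad2l1, another checkpoint protein, had 8.10 and 10.4, a difference of 0.36 ± 0.22. Foxm1, a transcription factor that acts on mitotic genes, stood at 0.45 ± 0.23. Cenpa, the histone H3 variant of centromeres, stood at -0.07 ± 0.22. Its sign changed with quantile normalization, loess centring, spike-in scaling and no scaling, and its value was 0.000 with the deposited value table.

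The kinase gene Aurka and the gene of its activator, Tpx2, were the 2 mitosis genes at least 2-fold lower. Aurora A works at the spindle poles, and Tpx2 binds it there and switches it on. Aurka had a signal of 648 in control muscle against 84.4 in denervated muscle, a difference of -2.94 ± 0.20 or a 7.68-fold lower signal (NM_011497, chromosome 2 at 172047439 to 172047498, mm8). Tpx2 had 41.5 and 13.5, a difference of -1.62 ± 0.21 or a 3.07-fold lower signal (NM_028109, chromosome 2 at 152585181 to 152585240, mm8). Each of the 2 genes has 1 probe on the array, so neither value has a check by another probe. Over all 14 alternative settings Aurka stayed between -2.94 and -2.51 and Tpx2 between -1.62 and -1.19. Of the 8 genes listed as Aurora A partners, Tpx2 was the only one past 2-fold. The centrosome gene Cep192, which recruits Aurora A, stood at 0.74, and the scaffold gene Nedd9 at -0.70.

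**Figure D3:**
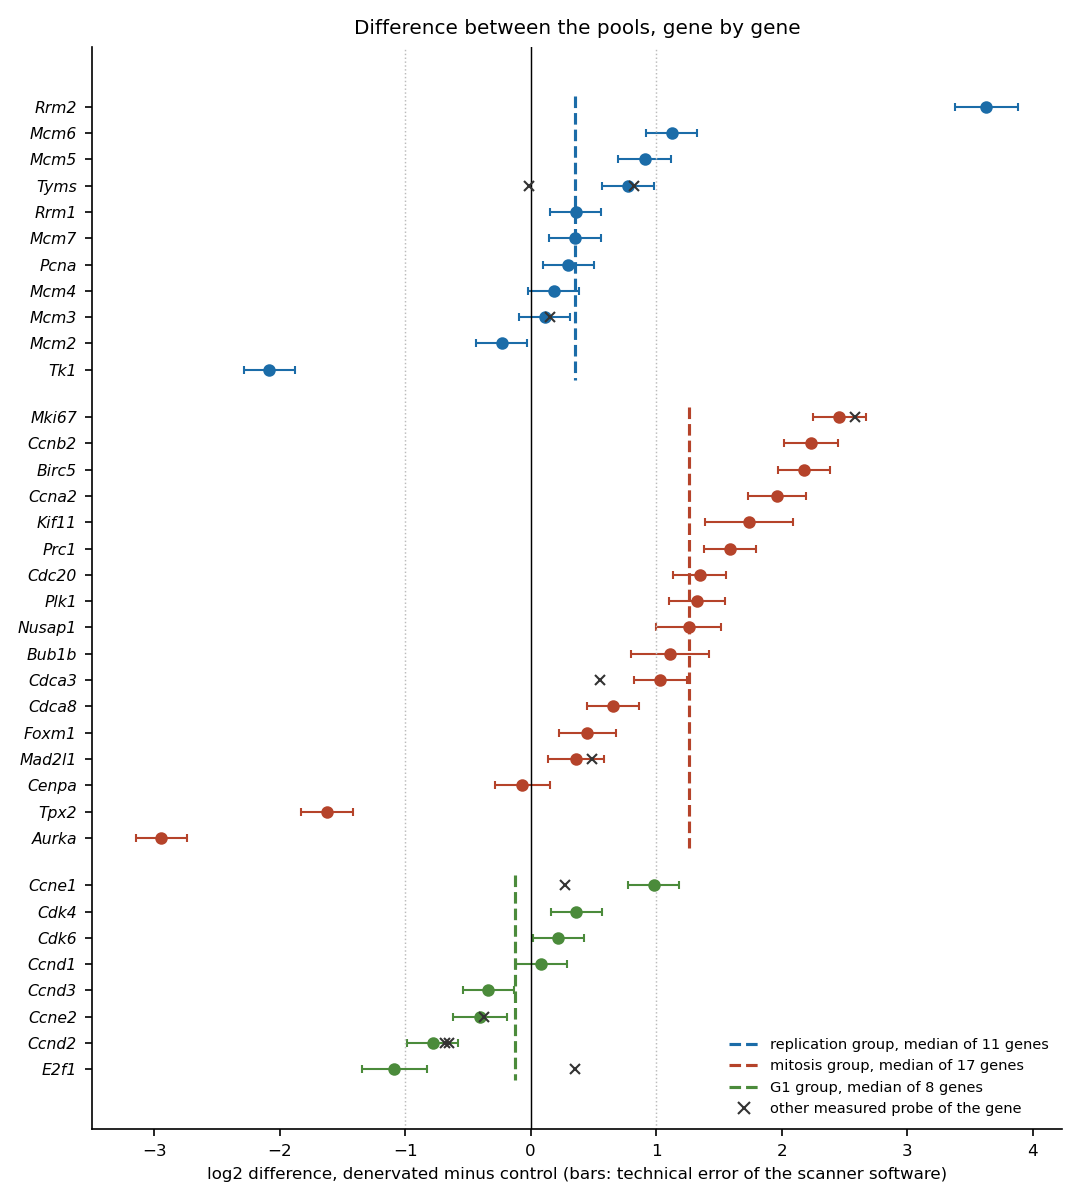
Log2 difference of each measured gene, denervated minus control (x axis), by group, with the technical error as bars, other measured probes of the gene as crosses, group medians as dashed lines and dotted lines at 2-fold. Rrm2 stands farthest to the right at 3.63 and Aurka farthest to the left at -2.94, and the crosses of E2f1 and Tyms lie apart from their points.

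The G1 genes, by contrast, had no member at least 2-fold higher as reported, and 1, E2f1, at least 2-fold lower. Ccnd2, a cyclin D, had 237 in control muscle against 138 in denervated muscle, a difference of -0.78 ± 0.20, and its 3 probes ran from -0.78 to -0.65. Ccnd1 had 47.1 and 49.97, and the 10 spots of its probe gave 0.09 ± 0.04 (SD over spots). Ccnd3 stood at -0.34 ± 0.20, which became 0.09 without scaling. The D cyclins, which link growth signals to the cell cycle, were thus level or lower in denervated muscle with the scaling used.

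Ccne1 and Ccne2, the E cyclins that start DNA synthesis, lay on opposite sides of 0. Ccne1 had 32.6 in control muscle against 64.4 in denervated muscle, a difference of 0.98 ± 0.21, just under 2-fold and past it under 6 of the 14 alternative settings, and its dimmer probe gave 0.28 ± 0.29. Ccne2 had 16.4 and 12.4, a difference of -0.41 ± 0.21, with its other probe at -0.37. Their partner kinase gene Cdk2 was not well above background on either array. Cdk4 stood at 0.36 ± 0.20. Cdk6 stood at 0.22 ± 0.21, and of its other probes 1 was detected only in control muscle and 1 only in denervated muscle.

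E2f1, the factor released by the retinoblastoma protein, had no settled direction. Its brighter probe had 7.49 in control muscle against 3.53 in denervated muscle, a difference of -1.08 ± 0.26. By that value E2f1 was 1 of the 4 measured genes at least 2-fold lower. The gene was under 2-fold in 7 of the 13 alternative settings that gave it a value. Its other probe, printed 10 times, gave 0.36 ± 0.26 (SD over spots), with spots from -0.22 to 0.59. Of the 9 genes with several measured probes, E2f1 and Tyms were the only ones whose probes lay on both sides of 0. In all, the 44 genes have 72 probes, of which 47 were measured.

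Many of the higher genes had dim signals. Under a scaled signal of 25, averaged over both arrays on the log scale, lay 16 of the 36 measured genes, 12 of them in the mitosis group. Of those 16, 9 were at least 2-fold higher and 2 lower, against 6.92% and 10.4% of all 4989 measured genes as dim. Of the 5 brighter mitosis genes, Mki67, Birc5 and Prc1 were at least 2-fold higher and Aurka lower. Normexp, with an offset of 50 intensity units that compresses dim differences most, left 5 mitosis genes at least 2-fold higher (Mki67, Birc5, Ccnb2, Prc1 and Ccna2) and a median of 0.49. With it Cdc20 was at 0.85, Cdca3 at 0.69, Plk1 at 0.68, Kif11 at 0.31, Nusap1 at 0.29 and Bub1b at 0.19, all under 2-fold. A stricter limit on signal left 7 of 12. Over all measured genes, 767 of 15869 were at least 2-fold higher with normexp and 872 of 13060 with the stricter limit.

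Further genes of the same processes came from companion lists. Of 39 measured other mitosis genes, 12 were at least 2-fold higher and 1 lower, with a median of 0.29, which was -0.05 with normexp. The shares over all measured genes were 6.88% higher and 8.59% lower. The count of 12 was 6 with normexp and 8 of 29 with the stricter filter on dim probes. Cks2, among the 12 at 1.20, had another measured probe at -0.23. The kinetochore genes Spc25, Spc24 and Nuf2 stood at 2.78, 2.21 and 1.12, and the condensin gene Ncapg at 2.37. Among other kinetochore genes of the list, Cenpk stood at -0.89, Ndc80 at 0.31 and Cenpe at 1.415. The condensin genes Smc2, Ncaph, Smc4 and Ncapd2 stood at 0.44, 0.30, -0.02 and -0.10. Neither set thus shared 1 difference. Control signals were dim for Spc25 (2.88), Nuf2 (3.78) and Ncapg (2.14), where the lowest detected signal of the control array was 1.84. The ubiquitin-conjugating gene Ube2c, which serves the anaphase-promoting complex, stood at 1.63 and the kinesin gene Kif20a at 1.39. A further 12 were above background in the denervated pool only, 8 of them with a bound of at least 2-fold, and Stil in the control pool only. Mybl2, which encodes the MuvB partner B-Myb, was the single lower gene, at -1.49 ± 0.21.

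Of 40 measured other replication genes, 2 were at least 2-fold higher and 3 lower, with a median of -0.10 that became 0.34 without scaling. These counts are close to the shares over all measured genes, 6.88% and 8.59%, so they do not set this list apart. Uhrf1, which keeps DNA methylation through replication, stood at 1.51, and Cdt1, which loads the MCM helicase, at 1.43. Pola2, a subunit of the priming polymerase, stood at -1.60, with its other measured probe at -0.78. Dut, which removes dUTP, stood at -1.52.

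Among the regulators around the G1 genes, Rb1, the retinoblastoma gene, had 235 in control muscle against 1211 in denervated muscle, a difference of 2.37 ± 0.20. Myc stood at 2.11, with its 3 probes from 0.76 to 2.11, E2f4, a repressing E2F, at 1.32, E2f2 at 1.24 and Tfdp2 at -1.19, with its 3 probes from -1.19 to -0.04. The CDK inhibitor gene Cdkn1a, which encodes p21, had 58.2 and 1504, a difference of 4.69 ± 0.20. The other 5 measured CDK inhibitors lay below 0, with Cdkn2b at -1.56. The Cdkn1a and Rb1 signals, whose products hold back division, were thus higher in the same pool as Mki67 and Ccnb2.

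**Figure D4:**
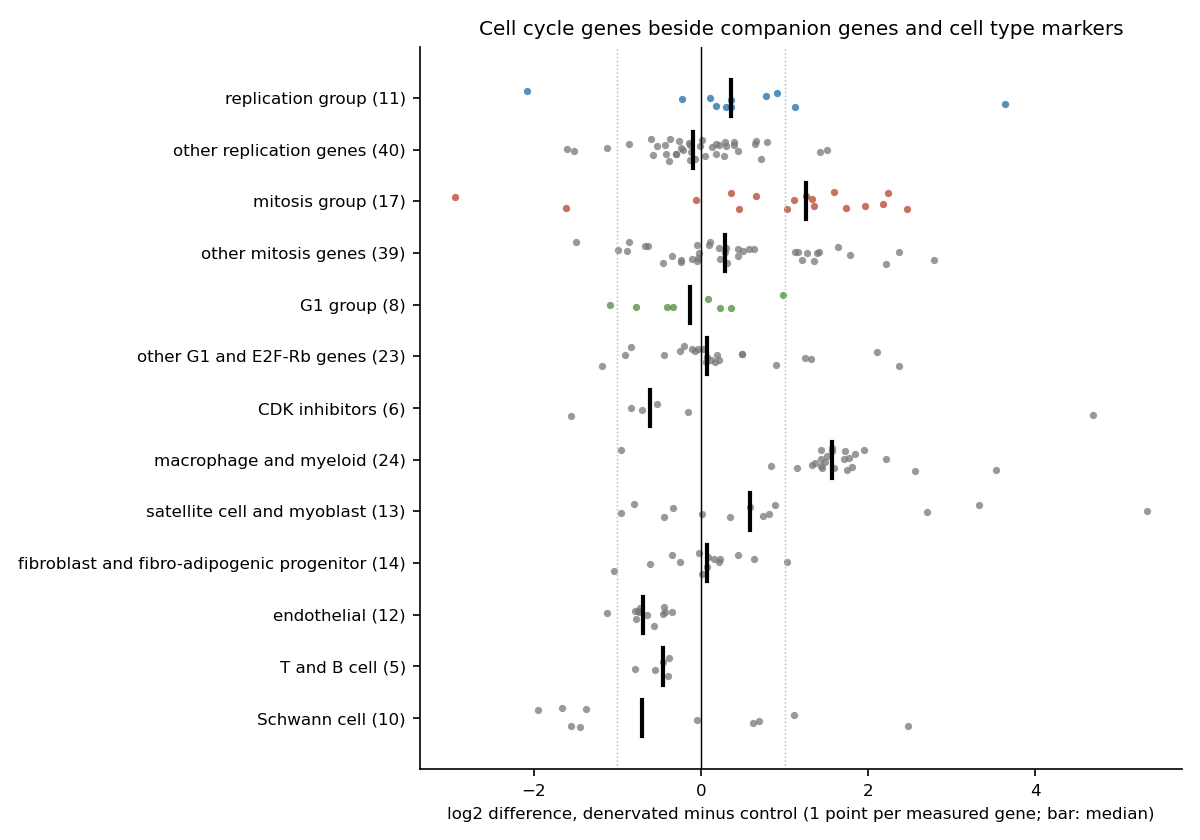
Log2 difference of each measured gene (x axis, 1 point per gene, bar at the median, dotted lines at 2-fold) in the 3 groups, the companion lists and the marker lists of cell types (y axis, number of genes in brackets). The mitosis group has its median at 1.26, the macrophage and myeloid list at 1.57 and the endothelial list at -0.69.

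Markers of cells that can divide differed between the pools as well. For the marker lists too, the shares over all measured genes were 6.88% at least 2-fold higher and 8.59% lower. Of 24 measured macrophage and myeloid markers, 22 were at least 2-fold higher and 0 lower, and their summed signal was 2602.6 in control muscle against 7907.5 in denervated muscle. Cd68 stood at 3.53 and Lyz2 at 1.48, and Cx3cr1 was the only one below 0, at -0.96, although its other probe, detected only in denervated muscle, was at least 4.63-fold higher. Of 13 measured satellite cell and myoblast markers, 3 were at least 2-fold higher, namely Myog, Ncam1 and Myod1, which denervated fibres also express. Ncam1 stood at 3.33, but its 8 measured probes ran from -0.62 to 3.33. The summed signal of the 13 markers was 6992.2 in control muscle and 12394.5 in denervated muscle. Most of it came from Des, with 5835 and 7413, and in denervated muscle also from Myog, with 53.6 and 2166. Pax7, the defining satellite cell gene, stood at -0.80, and Pax3 and Myf5 were not well above background on either array.

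Fibroblast and fibro-adipogenic progenitor markers were nearly level, with 1 of 14 higher, 1 lower and sums of 42014.2 and 40340.0. All 12 endothelial markers lay below 0, with sums of 5551.4 and 3431.3. The 5 measured T and B cell markers summed to 57.6 and 39.8, and Cd8a, Cd79a, Ms4a1 and Cd2 were above background in the control pool only. Schwann cell markers summed to 1430.9 and 902.1, with 2 of 10 higher and 5 lower. The 2 measured neutrophil markers, S100a9 at 1.37 and Mpo at -0.21, summed to 21.7 and 47.6. S100a8, Ltf and Retnlg were above background in the denervated pool only. The 5 measured erythroid markers summed to 4532.1 and 2973.4, most of it from Hba-a1, with 4404 and 2881. Klf1, at 1.51, was the only erythroid marker above 0. The part of any of these cells in the higher mitosis signals was not tested.

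Scaling set where 0 lies for all of these values. Scaling to the spike-in controls moved the median of all genes up by 0.40, and no scaling by 0.43. The group medians then became 0.75 and 0.79 for replication, 1.66 and 1.69 for mitosis, and 0.27 and 0.31 for G1. Both settings add a constant to every gene, so they cannot change the order of the groups. They do turn the sign of values near 0: those of Mcm2, Ccnd3 and Cenpa with both, and that of Ccne2 without scaling. Among all genes past 2-fold, the share of higher ones was 44.5% as reported, 77.6% with spike-in scaling and 79.7% without scaling.

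**Figure D5:**
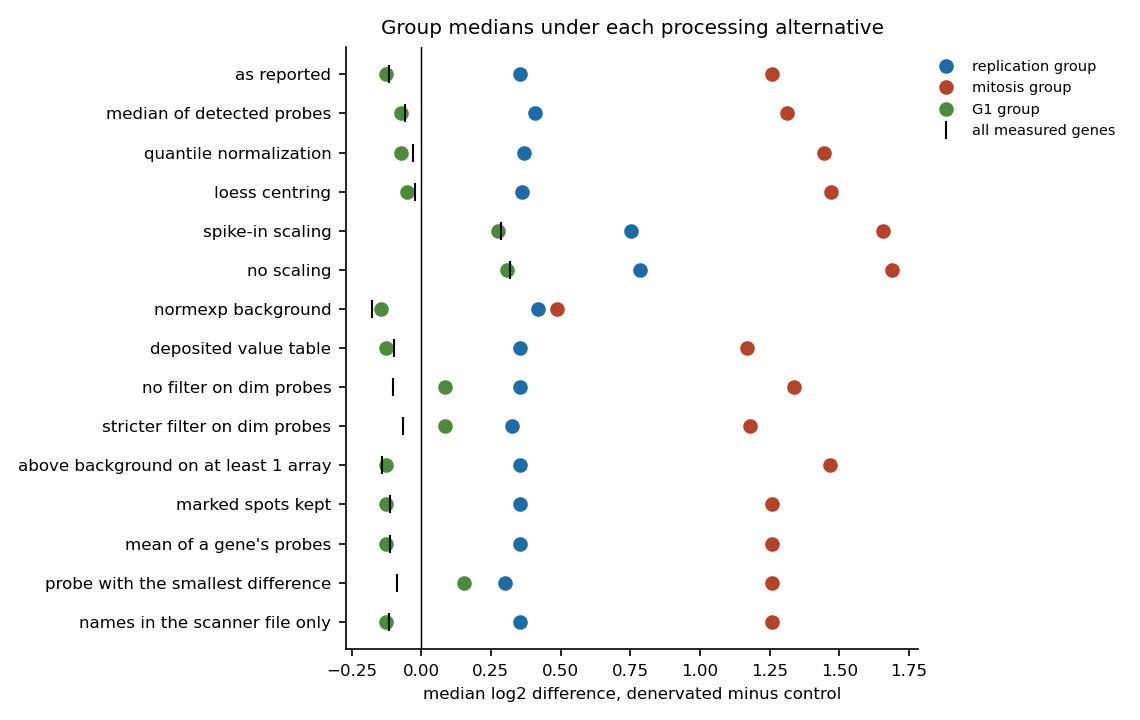
Median log2 difference of each group (x axis, denervated minus control) as reported and under 14 alternative settings (y axis), with the median of all measured genes as a vertical tick. The mitosis median is the highest of the 3 in every setting, and lies close to the replication median with normexp background correction (0.49 against 0.42).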

How the data were processed

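Total RNA of 6 mice per group was pooled and each pool hybridised to 1 Agilent 1-colour array with 1.65 µg of Cy3-labelled cRNA, per the labels' protocols and the series text. The spot intensity values deposited by the authors came from Agilent Feature Extraction 9.5 (9.5.3.1 in the file headers) and were background-subtracted and detrended within each array, with no scaling between arrays. The authors' deposited value table, used as a score on a linear scale and as an alternative only, equals that intensity scaled to a 75th percentile of 100 over all 45018 spots and rounded; its column medians were 10 and 9. No sample column was left unused.

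The value used was log2 intensity minus the 75th percentile over 41174 probes (788 for the control array, 1063 for the denervated array). Spots marked non-uniform or outliers (87 and 81) were left out and spots of a probe averaged. Of the probes, 70.9% and 68.4% were well above background. A gene took its measured probe with the highest mean signal. The 23374 probes with a listed RefSeq accession took its current symbol (GRCm38.p6 table, used for names and promoters); other probes kept the array's name, which can be old. Probe positions are on mm8, and exon or UTR annotation of them was not used here.

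Samples were grouped by their labels. With 1 array per group no test was made and a fold of 2 served as threshold. The technical error comes from the software's spot error, which is preset to 10% for bright spots, and had a median of 0.20; repeat spots of 1 probe differed less, with a median SD of 0.06 in the log2 difference across 173 probes with 8 or more usable spots. Neither holds the spread between mice.

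The genes, companion lists and markers were chosen with earlier results of these data known. Every measured or bounded gene of the 3 groups could be named. Of companion lists, genes past 2-fold and the 3 highest and lowest could be, and of marker lists the 2 brightest, the highest and the lowest. The signal limit of 25 and the printed promoters were chosen after values were seen. So were others named, namely Rrm2b, Cep192, Stil, Pax7, Pax3, Myf5, Ncam1, Myod1 and the T and B cell markers. Ndc80, Smc2, Ncaph, Smc4, Ncapd2, S100a8, Ltf and Retnlg were too. A gene that the rule names in the list of other replication genes is not reported here. The calculation was tested on simulated data. The 14 alternatives covered scaling, background (normexp with offset 50, limma 3.58.1 in R 4.3.3), the deposited table, filters, marked spots, probes of a gene and naming.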

Additional observations from a re-analysis of the deposited data

How the results depend on the processing

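No paired analysis was possible because each group has 1 array, and for the same reason no array could be left out. Of 70 counts and medians recomputed under 14 alternatives, 56 kept within 1.5 times or within the technical error. The count of genes at least 2-fold higher, 13 as reported, was 7 with normexp and 8 with the stricter filter on dim probes. The replication median of 0.35 was 0.75 with spike-in scaling and 0.79 with no scaling. The mitosis median of 1.26 was 1.47 with loess centring and also with genes above background on at least 1 array, 1.66 with spike-in scaling, 1.69 with no scaling and 0.49 with normexp. The G1 median of -0.13 was 0.27 with spike-in scaling, 0.31 with no scaling, 0.085 with no filter and with the stricter filter, and 0.15 with the probe of smallest difference, so it has no settled sign. With that last choice E2f1 reversed to 0.36. Of single-gene values, 389 kept within the technical error and 107 moved. Many of the 389 could not move, because changes of filter or naming kept the same probe for a gene. The choice of probe likewise cannot change a gene with 1 measured probe. The 389 is thus not a measure of stability. Spike-in scaling and no scaling move every gene by a constant, and normexp adds an offset that lowers dim differences; for the other changes the cause was not tested. The signal over background limits the dim genes: those above background on 1 array only have a bound, and Cdc25c, Ttk and Cdk2 have no value.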

Other observations

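Several of the 44 genes have probes that were not well above background on either array beside a probe that was detected. Among probes designed on full-length cDNA clones, this held for those of Rrm1 (AK049601), Mcm4 (AK083618), Top2a, Kif11, Cenpa and Cdca8. The clone probes of Mcm3 (AK088142) and Cdk6 were measured in both pools, with differences of 0.11 and 0.22. It also held for probes on RefSeq transcripts of Kif11, Cdk1 and Ccnb1. For Cdk1, that probe had 0.45 in both pools, and 2 of the 3 Ccnb1 probes, all on 1 transcript, were not well above background on either array. Which transcripts these probes detect was not tested.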
